A study of Homo sapiens with 7 samples.

Results

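The miR-130/miR-301 family consists of mature miRNAs that carry the same seed, and its members were followed here in sEVs (small extracellular vesicles) of HepG2, a cell line from a human hepatocellular carcinoma. The members were taken by name: hsa-miR-130a-3p, hsa-miR-130b-3p, hsa-miR-301a-3p, hsa-miR-301b-3p and hsa-miR-454-3p (written without hsa- where no confusion arises), 5 of the 2656 mature miRNAs in the count table. The family was picked because miR-130a-3p and miR-130b-3p had already been seen to fall upon SYNCRIP silencing in these libraries, so differences of the members between the groups are described without a test. The groups were sEVs of HepG2 cells expressing a scrambled short hairpin RNA (shCTR, 3 libraries) and sEVs of HepG2 cells expressing a short hairpin RNA directed against SYNCRIP (shSYNCRIP, 4 libraries). In both groups the hairpins were delivered by lentivirus into cells then selected with puromycin, were induced with doxycycline, and vesicles were pelleted by differential centrifugation after 72 h in exosome-free serum. The study's methods list 1 hairpin against SYNCRIP and describe no cloning step, and the libraries are labelled as biological replicates. A cell line field of the labels counts upward from HepG2 to HepG8, whereas every title gives HepG2.

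A miRNA guides Argonaute to messenger RNAs mainly through its seed, bases 2 to 8 from the 5′ end, so miRNAs with one seed are predicted to share many targets. The miR-130/miR-301 family has been studied in vascular and fibrotic disease, and miR-130b in liver tumour-initiating cells. SYNCRIP, also known as hnRNP Q, is an RNA-binding protein that takes part in the sorting of miRNAs into vesicles and recognizes a short motif called hEXO, located downstream of the seed.

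The mature sequences show what joins the members and where they part. Of the 5 members, 4 matched a RefSeq entry (GRCh38.p14), and they are shown because their similarity bears on how reads can be told apart. The capitals mark the seed.
miR-130b-3p: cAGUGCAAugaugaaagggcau
miR-301a-3p: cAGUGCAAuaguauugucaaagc
miR-301b-3p: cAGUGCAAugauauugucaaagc
miR-454-3p: uAGUGCAAuauugcuuauagggu
The seed AGUGCAA was identical in these 4. miR-130a-3p is the remaining member by name, and the oligonucleotide that the study lists for it holds the same seed. By that oligonucleotide, miR-130a-3p differs from miR-130b-3p at as few bases as miR-301a-3p does from miR-301b-3p. Counted from the 5′ end, miR-301a-3p and miR-301b-3p differed at 2 positions (A10G and G11A, the base of miR-301a-3p first). miR-130b-3p and miR-301b-3p were identical from base 2 to base 12 and differed at 9 of 22 compared positions. miR-130b-3p and miR-454-3p differed at 12 of 22. How reads that fit more than one miRNA were assigned is not given in the sources used here, so a few counts of close members should be read with care.

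The hEXO motif was searched downstream of base 7 as 3 bases other than C, followed by one base other than U, then A or U, then G or C. miR-130b-3p had 2 matches. The first (AUGAUG) started at base 8, the last base of the seed, and the other (UGAAAG) lay downstream of the seed. miR-301a-3p and miR-301b-3p each had 1 match, starting at base 13 (AUUGUC). miR-454-3p had no match in this window. Thus 3 of the 4 members with a RefSeq sequence carried the letters of the motif. The share was 63.6% of the 2370 mature miRNAs in the RefSeq table and 68.6% of those as long as the 4 members. It was 61.9% of the 105 tested miRNAs with a sequence. miR-130a-3p, which had no RefSeq entry, is not in these numbers. The oligonucleotide that the study lists for it also holds the letters of the motif in this window (UAAAAG, with T read as U). Such a match is a description of letters and not of binding.

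The hairpins lie at 3 loci of GRCh38.p14. MIR301B (chr22:21652981-21653058) and MIR130B (chr22:21653304-21653385) are on the plus strand, 245 bases apart, within the noncoding gene AP000553.1 of GENCODE release 29, where the MIR130B hairpin overlaps an exon in part and MIR301B lies in an intron. MIR454 (chr17:59137758-59137872) and MIR301A (chr17:59151136-59151221) are on the minus strand in introns of SKA2, which encodes a spindle and kinetochore protein, with 13263 bases between them. MIR130A (chr11:57641198-57641286) lies on the plus strand in an intron of the noncoding gene AP000662.1.

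The libraries held from 29863 (shSYNCRIP replicate 2) to 388226 (shCTR replicate 3) miRNA counts, with 100 to 275 miRNAs detected. shSYNCRIP replicate 4 had the fewest detected miRNAs. With 0 counts, the level may still be as high as 7.73 CPM (counts divided by the library total and scaled to a common size) where depth was greatest and 100.5 CPM where it was least (3 counts of the total). These limits, like all intervals given, cover counting error only, because amplified reads are not independent molecules. Of the 4 hepatocyte miRNAs examined, miR-122-5p had 313 to 1664 counts in every library and miR-192-5p had at most 1 count in any. The hepatocyte list took 0.523% to 1.01% of the counts in shCTR and 0.272% to 1.49% in shSYNCRIP. The 3 erythroid miRNAs took 9.49% to 18.7% in shCTR and 8.54% to 12.3% in shSYNCRIP. Most of these counts were of miR-486-5p, which had 2644 to 34044 counts in every library. miR-451a had 0 to 6279 counts, and miR-144-3p had 138 in shSYNCRIP replicate 3 and 0 elsewhere. The 4 leukocyte miRNAs took 1.15% to 2.33% and 0.317% to 1.59%. Every miRNA of these lists was detected in at least 1 library, and the part of the erythroid and leukocyte miRNAs in the results was not tested.

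In sEVs from control cells the family was made up of 2 members. In sEVs from SYNCRIP-silenced cells miR-130b-3p had at most 1 count in a library, and miR-130a-3p was lower than in any control library but still had 11 and 37 counts in 2 of the 4. miR-130b-3p was the most abundant, followed by miR-130a-3p, and miR-301a-3p, miR-301b-3p and miR-454-3p had 0 counts in all 3 shCTR libraries. Of the whole table, 406 miRNAs had a count in any library, among them 4 of the 5 members. Only miR-130a-3p and miR-130b-3p passed the filter on low counts, and both passed through their shCTR libraries, so that they had to be high there.

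hsa-miR-130b-3p had 927, 375 and 1278 counts in shCTR replicates 1 to 3 and 0, 1, 1 and 0 counts in shSYNCRIP replicates 1 to 4. Scaled by TMM (trimmed mean of M values, a normalization for library composition), this corresponded to 9004, 2610 and 3321 CPM in shCTR and to at most 34.4 CPM in shSYNCRIP. The groups did not overlap. Within its library, miR-130b-3p ranked 29th of 224 detected miRNAs in shCTR replicate 1, 61st of 180 in replicate 2 and 55th of 227 in replicate 3. The single counts in shSYNCRIP replicates 2 and 3 placed it 130th of 187 and 184th of 214, at the level of the rarest detected miRNAs.

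At the lowest shCTR level of miR-130b-3p, 2610 CPM, the TMM-scaled totals of the 4 shSYNCRIP libraries correspond to 431, 75.9, 539 and 261 counts. The total does not describe a library fully: shSYNCRIP replicate 4, with 100 detected miRNAs, had 1 miRNA with at least 10 but fewer than 100 counts. It had 0 counts of miR-150-5p, a lymphocyte miRNA with 120 to 2031 counts in the other libraries. Of the other leukocyte miRNAs examined, miR-142-3p and miR-142-5p also had 0 counts there, whereas miR-223-3p had 364. The part of such losses in the result was not tested. The limma-voom log2 fold change was -8.71 (SE 1.63), which rests on the small count added before taking logarithms. Counts pooled over the libraries of each group, 2580 against 2, gave a ratio of 1023 between shCTR and shSYNCRIP (exact 95% interval 283 to 8450). That interval ignores the spread between libraries, and with 2 counts in all the size of the ratio is poorly fixed. Leaving out 1 library at a time gave log2 fold changes from -8.46 to -9.89, the latter without shSYNCRIP replicate 2, and -9.30 without shCTR replicate 2.

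hsa-miR-130a-3p, studied as an angiogenic miRNA of endothelial cells, had 339, 223 and 509 counts in shCTR replicates 1 to 3 and 11, 1, 37 and 0 counts in shSYNCRIP replicates 1 to 4. This was 3293, 1552 and 1323 CPM in shCTR against 66.7, 34.4, 179 and 0 CPM in shSYNCRIP. Again the groups did not overlap, and shSYNCRIP replicates 1 and 3 held more counts of it than of miR-130b-3p. Its rank was 56th to 86th among the detected miRNAs of the shCTR libraries and 121st to 133rd in the 3 shSYNCRIP libraries in which it was detected. The lowest shCTR level corresponds to 218, 38.5, 273 and 132 counts at the TMM-scaled totals of the shSYNCRIP libraries. The limma-voom log2 fold change was -5.32 (SE 1.88), with -6.24 without shSYNCRIP replicate 3 and -4.68 without shSYNCRIP replicate 4, the extremes of the fits that left out 1 library. Pooled over libraries, 1071 counts in shCTR stood against 49 in shSYNCRIP, a ratio of 17.3 (exact 95% interval 13.0 to 23.6, counting error only).

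**Figure D1:**
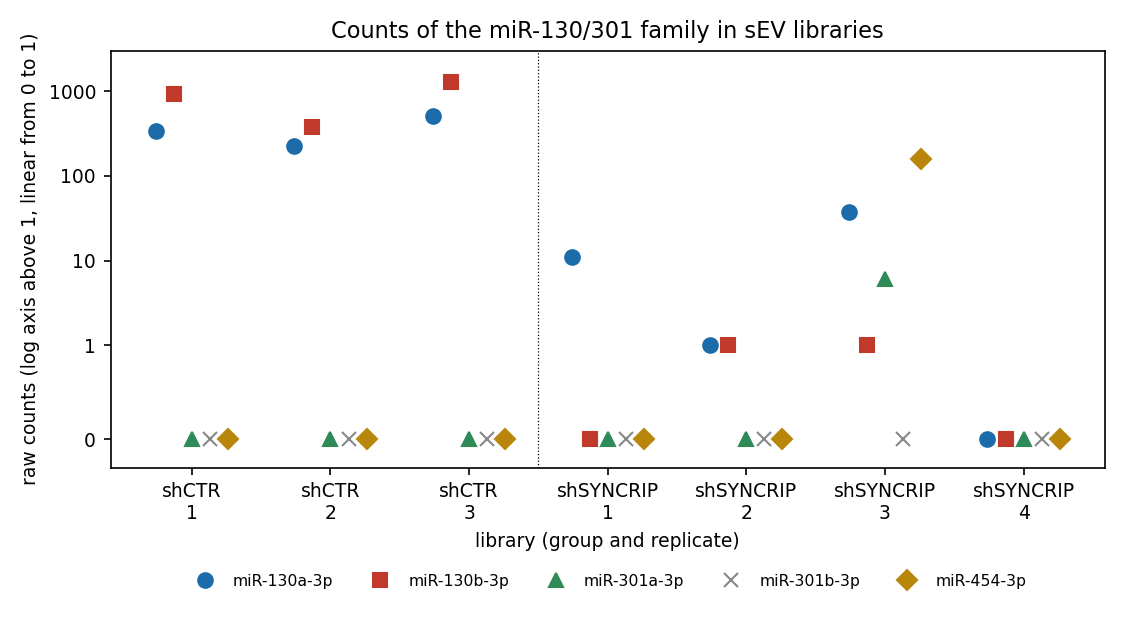
Raw counts of the 5 members (symbols) in each of the 7 sEV libraries, on an axis that is logarithmic above 1 and linear between 0 and 1. In shCTR, miR-130b-3p lies between 375 and 1278 and miR-130a-3p between 223 and 509, whereas in shSYNCRIP they reach at most 1 and 37, and miR-454-3p appears at 159 in shSYNCRIP replicate 3.

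Of the 4 members with counts, the 2 that were tested met the criteria used for differential abundance (nominal p under 0.1 and a log2 fold change beyond 0.5, in the lower direction), as did 12.8% of the 117 miRNAs tested. In the other direction 5.13% did. An adjusted p cutoff of 0.05 was met by 2.56% of the miRNAs in limma-voom, miR-130b-3p among them, and by 0 in the quasi-likelihood test of edgeR, where 2 had an unadjusted p under 0.05, and by 3 in DESeq2. For miR-130a-3p and miR-130b-3p, every shSYNCRIP library lay below every shCTR library, which held for 4.27% of the miRNAs tested. Because the family was picked on this contrast, nothing is read from these counts about the family. Of the miRNAs tested, 55 had at least 100 counts in every shCTR library, as miR-130a-3p and miR-130b-3p had. Of these, 1 had at most 3 counts in every shSYNCRIP library. It was miR-130b-3p, which was picked for its fall, so this too is only a description. Counts that jump between libraries of the same group were common. In shCTR, 21.4% of the miRNAs tested had at least 100 counts in 1 library and at most 3 in another, and in shSYNCRIP 47.0%. These shares are not like for like, since shSYNCRIP had 4 libraries against 3 and held the shallowest (29863 counts).

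**Figure D2:**
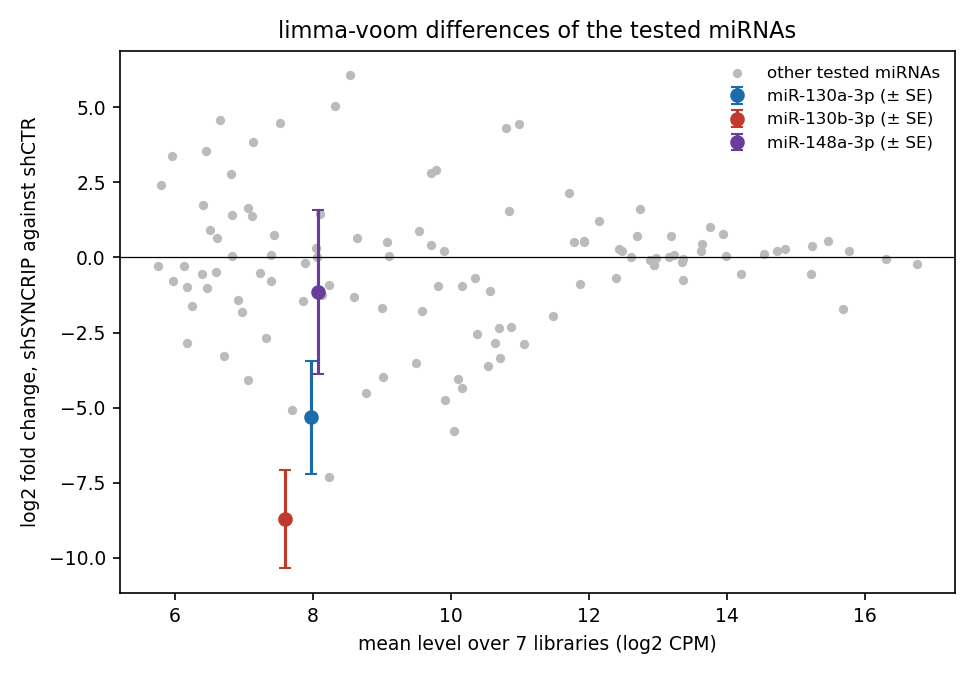
limma-voom log2 fold change (shSYNCRIP against shCTR) plotted against the mean log2 CPM over the 7 libraries for the 117 miRNAs tested, with bars of 1 SE for 3 of them. miR-130b-3p (-8.71) is the lowest point and miR-130a-3p lies at -5.32, while the bar of miR-148a-3p (-1.16) crosses 0.

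miR-130b-3p was the larger part of the family in each control library, and its share was lower in replicate 2 than in replicates 1 and 3, beyond the counting intervals. miR-130b-3p made up 73.2% of the family counts in shCTR replicate 1 (Wilson 95% interval 70.7% to 75.6%), 62.7% in replicate 2 (58.8% to 66.5%) and 71.5% in replicate 3 (69.4% to 73.6%). Its counts exceeded those of miR-130a-3p 2.73, 1.68 and 2.51 times in these libraries, so miR-130b-3p was the higher in 3 of 3. Between libraries the levels of both overlapped, at 4978 ± 3504 CPM for miR-130b-3p and 2056 ± 1077 CPM for miR-130a-3p (SD, n = 3). Ligation and amplification act differently on different sequences, so this order is one of counts. In shSYNCRIP the order was turned in both libraries with more than 2 family counts: 11 counts of miR-130a-3p stood against 0 of miR-130b-3p in replicate 1, and 37 against 1 in replicate 3.

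The family as a whole, summed over its 5 members, had 1266, 598 and 1787 counts in shCTR and 11, 2, 203 and 0 in shSYNCRIP. On the log2 CPM scale the sum averaged 12.60 ± 0.86 (SD, n = 3) in shCTR and 6.56 ± 2.60 (SD, n = 4) in shSYNCRIP, a difference of -6.04. This difference gives each library equal weight, whereas the counts pooled over libraries, 3651 against 216, gave a ratio of 13.4 between shCTR and shSYNCRIP (exact 95% interval 11.7 to 15.4, counting error only). The groups did not overlap, although shSYNCRIP replicate 3, at 982 CPM, lay far above the 66.7 and 68.8 CPM of replicates 1 and 2. Without shSYNCRIP replicate 3 the difference was -7.25, and without shSYNCRIP replicate 4, which had 0 counts, it was -5.35.

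**Figure D3:**
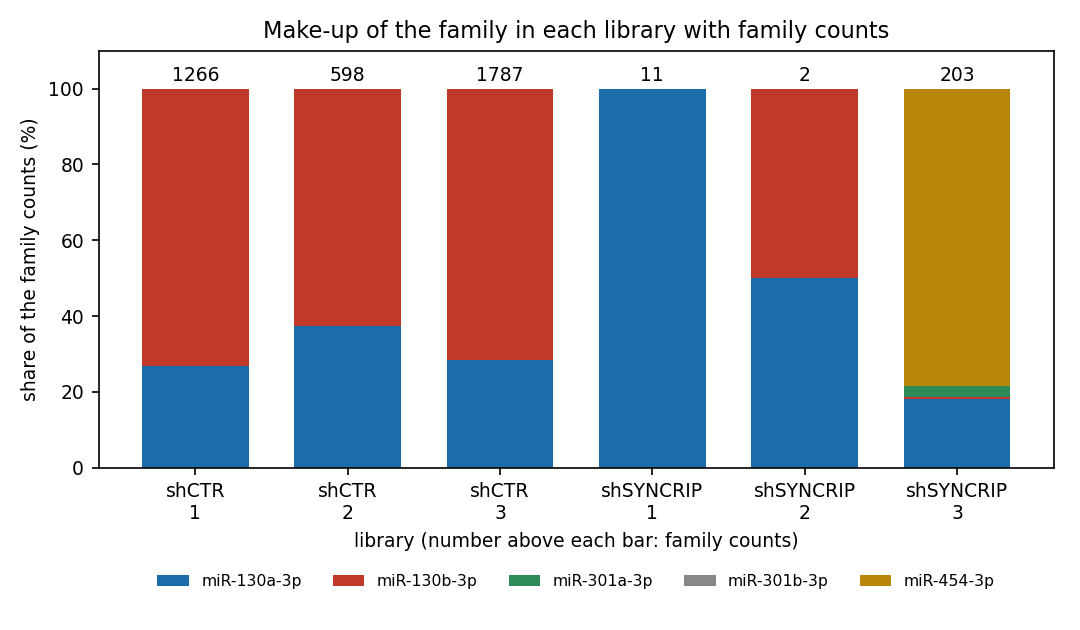
Share of the family counts (%) taken by each member in the 6 libraries with family counts, with the number of family counts above each bar. miR-130b-3p takes 62.7% to 73.2% in shCTR, and miR-454-3p takes 78.3% of 203 counts in shSYNCRIP replicate 3, while the bars of shSYNCRIP replicates 1 and 2 rest on 11 and 2 counts.

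The members other than miR-130a-3p and miR-130b-3p were seen in 1 library or in none. hsa-miR-454-3p had 159 counts (769 CPM) in shSYNCRIP replicate 3, where it ranked 112th of 214 detected miRNAs, and 0 counts in the other 6 libraries. In that library it took 78.3% of the family counts (Wilson 95% interval 72.2% to 83.4%), against 18.2% for miR-130a-3p (13.5% to 24.1%) and 0.493% for miR-130b-3p (0.0870% to 2.74%). At 769 CPM, miR-454-3p would have reached 79.2, 111 and 296 counts in shCTR replicates 1 to 3, and 127, 22.4 and 76.9 in shSYNCRIP replicates 1, 2 and 4. As above, such numbers rest on the TMM-scaled library totals alone.

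hsa-miR-301a-3p had 6 counts, also in shSYNCRIP replicate 3, and 0 elsewhere. Its level there would have given between 0.844 and 11.2 counts in the other libraries, above the limit of 3 counts in shCTR replicates 2 and 3 and shSYNCRIP replicate 1 and below it in the remaining 3. hsa-miR-301b-3p had 0 counts in all 7 libraries. A count of 0 in the 641505 counts of shCTR allows a level of up to 4.68 CPM, and in the 536640 counts of shSYNCRIP up to 5.59. Levels of miR-301a-3p, miR-301b-3p and miR-454-3p were compared pairwise within libraries by a two-sided exact sign-flip permutation test over the 7 libraries. Each of the 3 pairs differed in a single library, so each p was 1.00 (adjusted p 1.00), although 7 differing libraries would allow a p of 0.0156. No order among these 3 could thus be established.

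**Figure D4:**
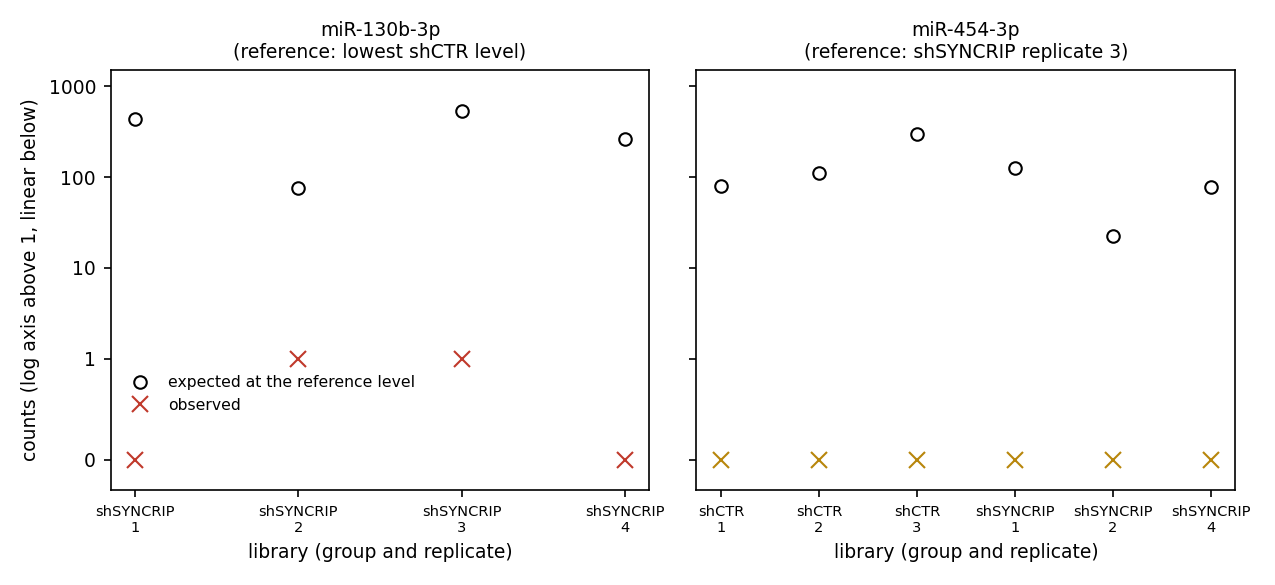
Counts that a reference level corresponds to at each library's TMM-scaled total (open circles) and counts observed (crosses). miR-130b-3p is shown in the 4 shSYNCRIP libraries at its lowest shCTR level (2610 CPM). miR-454-3p is shown in the 6 libraries other than shSYNCRIP replicate 3, at its level in that library (769 CPM). The axis is logarithmic above 1. The circles lie between 75.9 and 539 for miR-130b-3p and between 22.4 and 296 for miR-454-3p, and the observed counts are 0 or 1.

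In both pairs of neighbouring hairpins of this family, the number of counts differed between the 2 mature miRNAs. miR-130b-3p and miR-301b-3p, whose hairpins are 245 bases apart, had 2580 and 0 counts over shCTR replicates 1 to 3. miR-454-3p and miR-301a-3p, both from introns of SKA2, were both seen only in shSYNCRIP replicate 3, with 159 and 6 counts. The opposite arms of the hairpins, miR-130a-5p, miR-130b-5p, miR-301a-5p, miR-301b-5p and miR-454-5p, had 0 counts in every library, so all counts of these hairpins came from the 3p arms. miR-3666 and miR-4295, 2 further miRNAs whose RefSeq sequence holds the seed AGUGCAA, had 0 counts in every library as well.

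The miR-148/miR-152 family was used as a comparison because its seed has the same bases shifted by one position. The capitals again mark bases 2 to 8.
miR-148a-3p: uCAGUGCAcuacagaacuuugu
miR-152-3p: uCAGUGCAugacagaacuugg
miR-148a-3p, a miRNA enriched in liver, had 265, 278 and 3 counts in shCTR and 200, 1, 298 and 0 in shSYNCRIP. The groups overlapped, with high and low libraries on both sides. Its log2 fold change was -1.16 (SE 2.73), which did not pass the test (limma-voom, Benjamini-Hochberg adjusted p 0.992 over the 117 miRNAs tested, and 0.983 in the quasi-likelihood test of edgeR). miR-152-3p had 1, 131 and 1 counts in shCTR and 4, 1, 9 and 0 in shSYNCRIP, miR-148b-3p had at most 5 counts in any library, and neither passed the filter. Of the 10 miRNAs listed as related to the family (the 5 opposite arms, miR-3666, miR-4295 and the miR-148/miR-152 family), 3 had counts, 1 was tested, and 0 were called in either direction by limma-voom, against 17.9% of all miRNAs tested. For that 1 the unadjusted p was 0.673 in limma-voom and 0.647 in edgeR, and its adjusted p in DESeq2 was 0.983.

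To place the family among others, counts were summed over all miRNAs with the same seed, and 80 such seed groups passed the filter. Seeds were those of the RefSeq sequences, which 105 of the 117 miRNAs tested had. Of those without a sequence, miR-130a-3p was placed by the family list and the others were left out, so the ranks below do not cover them. The miR-130/miR-301 seed was 20th of the 80 in its mean share of the shCTR counts, at 0.686%. Its share was 1.19%, 0.407% and 0.460% in shCTR and 0.00729%, 0.00670%, 0.0842% and 0% in shSYNCRIP. Its difference of -6.04 on the log2 CPM scale was the 2nd lowest of the 80, whose median was -0.10. It was 1 of the 3.75% of seed groups in which every shSYNCRIP library lay below every shCTR library. Both the low rank and this separation follow from the choice of the family.

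**Figure D5:**
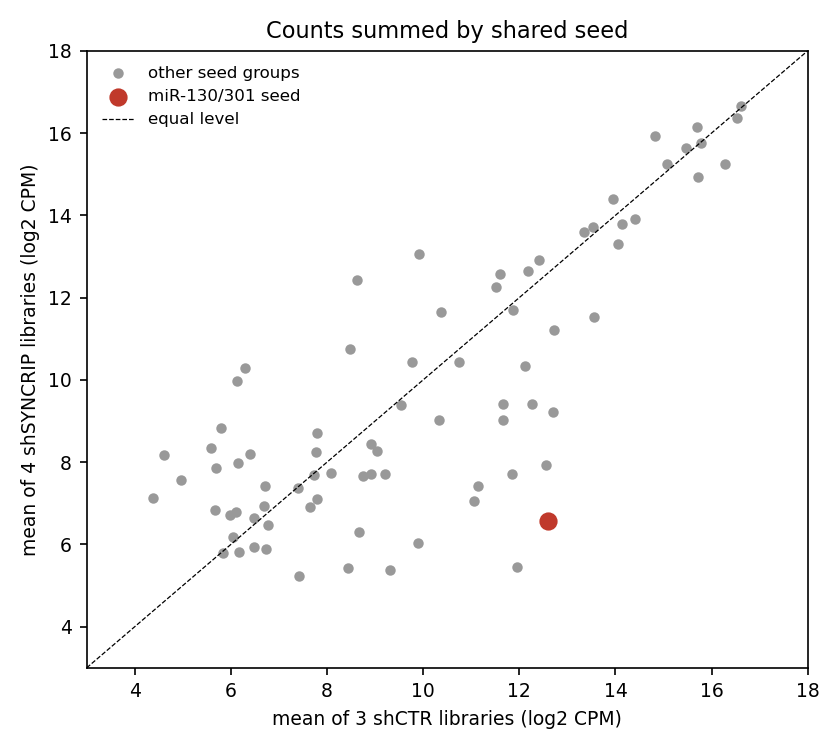
Mean log2 CPM in the 4 shSYNCRIP libraries against that in the 3 shCTR libraries for the 80 seed groups that passed the filter, with the line of equal level dashed. The miR-130/miR-301 seed lies at 12.60 in shCTR and 6.56 in shSYNCRIP, below the line.

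The miRNAs with the most similar profile over the 7 libraries were sought among the 115 other miRNAs tested, by the mean absolute difference of log2 CPM after centring each miRNA on its own mean. This measure was 1.54 between miR-130a-3p and miR-130b-3p. Closest to miR-130a-3p were miR-143-3p (1.09), typical of smooth muscle and fibroblasts, miR-142-5p (1.56), typical of blood cells, and miR-10b-5p (1.71), encoded in the HOXD locus, against a median of 2.72. miR-143-3p had 1531, 403 and 2664 counts in shCTR and 402, 20, 361 and 3 in shSYNCRIP. Closest to miR-130b-3p were miR-224-5p (1.76), often raised in liver tumours, miR-433-3p (1.91), from the imprinted cluster on chromosome 14, and miR-143-3p (2.52), against a median of 3.83. None of these 5 was as low as miR-130b-3p in all shSYNCRIP libraries: miR-224-5p kept 391 counts in replicate 3, and miR-433-3p had 15, 5, 0 and 0 counts in shSYNCRIP but also 20 in shCTR replicate 3. Since the members were chosen for their pattern, this likeness is a description.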

How the data were processed

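Small RNA-seq of sEVs was analysed in 3 shCTR and 4 shSYNCRIP libraries, grouped by the sample titles. The authors clipped adapters with FastqToolkit, filtered reads on length and quality with Cutadapt, counted forward reads with MiRDeep2 against miRBase and deposited raw counts per mature miRNA (submitters' processing notes name cutadapt, edgeR and GRCh38). Library totals of 29863 to 388226 limit the precision of rare miRNAs.

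With R 4.3.3, edgeR 4.0.16 and limma 3.58.1, miRNAs were filtered with filterByExpr (117 kept), scaled by TMM and fitted across all with limma-voom, as in the study's methods. The quasi-likelihood test of edgeR, DESeq2 1.42.0, other filters and scalings, a replicate block and leaving out each library were alternatives. log2 CPM used a prior count of 2. The limma-voom and quasi-likelihood fits were run on simulated counts with known changes, as a check of the code and not of these results. Sequences were those of RefSeq, and host genes those of GENCODE 29. Named miRNAs were the members, the related list, and the 3 nearest profiles of miR-130a-3p and of miR-130b-3p. Members and lists were chosen with earlier results of these data known. Other assays of the study were not analysed here.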

Additional observations from a re-analysis of the deposited data

Results flagged for a closer look

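In the 4 shSYNCRIP libraries, the value of 1 library stood far from the others for 2 of the 8 quantities examined (the members with any count, their sum and the miR-148/miR-152 miRNAs). In both, the other 3 libraries had 0 counts and so share 1 value, so that any single library with counts would stand apart, and the rate of about 1 in 20 that chance gives for spread values does not apply. miR-454-3p stood apart at 9.61 on the log2 CPM scale in shSYNCRIP replicate 3, with 159 counts there and 0 in the other 3. In that library miR-301a-3p was also distant, at 5.37 (6 counts, and 0 in the remaining 3). shSYNCRIP replicate 3 also held the most miRNAs with at least 100 counts in 1 library and 0 counts in all others, 13 against 1 to 8 in the other libraries.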

How the results depend on the processing

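The difference of the summed family was between -5.35 (without shSYNCRIP replicate 4) and -7.25 (without shSYNCRIP replicate 3) when 1 library was left out, -6.12 with DESeq2 size factors, -6.04 with library size alone and -6.63 with a prior count of 0.5. The log2 fold change of miR-130b-3p was -10.06 with DESeq2. Requiring at least 10 counts in every library left 36 miRNAs and removed all members. miR-130a-3p and miR-130b-3p fell below this in shSYNCRIP only, whereas miR-301a-3p, miR-301b-3p and miR-454-3p had 0 counts in shCTR as well. The number of miRNAs meeting the criteria was 21 (15 lower, 6 higher). It was 87 with no filter on low counts (22 lower, 65 higher, 406 tested), 3 with at least 10 counts in every library, 8 with the quasi-likelihood test of edgeR, 11 with the DESeq2 Wald test and 3 at an adjusted p under 0.05, and the cause was not tested for the other tests. It ranged from 16 to 22 when 1 library was left out. A replicate block, with the replicate number as a term, gave 13 calls and log2 fold changes of -4.37 for miR-130a-3p and -8.45 for miR-130b-3p. The correlations of deviations between equally numbered libraries were -0.06, -0.03 and 0.09. The labels do not say whether equal numbers mark a shared batch, and these 3 values cannot settle it. Of the related miRNAs, 0 were called in any alternative. The filter of 10 counts tested 0 of them, which fixed that result, no filter tested 3, and the other fits to all 7 libraries tested 1, miR-148a-3p. The mean log2 differences of miR-454-3p from miR-301a-3p and miR-301b-3p, and of miR-301b-3p from miR-301a-3p, were 0.61, 0.85 and -0.25. Leaving out 1 library gave 0 to 0.70, 0 to 0.98 and -0.28 to 0, with 0 for all 3 without shSYNCRIP replicate 3.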
